A study of Mus musculus with 50 samples.

Results

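Adenosine signalling and handling was described in the nucleus accumbens (NAc) through 7 genes that were chosen by symbol: the receptors *Adora1*, *Adora2a* and *Adora2b*, adenosine kinase (*Adk*), the ecto-5'-nucleotidase CD73 (*Nt5e*) and the equilibrative nucleoside transporters *Slc29a1* (ENT1) and *Slc29a2* (ENT2). All 7 were listed in both deposited count tables, among 24552 genes. Their values were compared between the medium spiny neuron (MSN) classes, between immunoprecipitated and whole-tissue RNA, between stress groups and between control libraries and libraries labelled Sirt1-KO.

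Adenosine is a purine nucleoside that accumulates outside cells when ATP is released and broken down, and it damps neuronal activity and promotes sleep. The A1 receptor (*Adora1*) couples to Gi and lowers cyclic AMP, whereas the receptors made from *Adora2a* and *Adora2b* couple to Gs and raise it. In the striatum, *Adora2a* is a classical gene of the D2 receptor-expressing, indirect-pathway MSNs, where its receptor opposes D2 receptor signalling and is blocked by caffeine. CD73 sits on the cell surface and makes adenosine from AMP, ENT1 and ENT2 let adenosine pass the plasma membrane down its gradient, and adenosine kinase phosphorylates it back to AMP inside the cell.

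The mice carried RiboTag (RT), a floxed allele of the ribosomal protein gene *Rpl22* that yields an HA-tagged protein after Cre, together with D1-Cre or D2-Cre from GENSAT BAC transgenic lines on a C57BL/6 background (C57BL/6J in the study's methods). Mice of 8 to 12 weeks were either undefeated controls (Con) or went through chronic social defeat stress of 10 min a day for up to 10 days per the labels, though the study's methods give a shorter daily exposure, after which a social interaction test sorted them into resilient (Res) and susceptible (Sus) groups. Each library pooled NAc punches of 2 mice. HA immunoprecipitates (IPs) hold RNA bound to tagged ribosomes, and inputs are RNA of the homogenate before the precipitation, from all NAc cells. There were 13 D1-IPs (4 Con, 4 Res, 5 Sus), 15 D2-IPs (5 per group) and 9 inputs of each line (3 per group). A further 4 D1-IPs came from undefeated male RT mice with D1-Cre and a floxed *Sirt1* allele, and are called here the libraries labelled Sirt1-KO. No age is given for the mice of these 4 libraries. D2 receptors are also made by cholinergic interneurons, so the D2-Cre line is not a model of MSNs alone.

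Counts on genes numbered 21591075 to 31009626 per IP, 18384265 to 28179940 per input and 22174187 to 31785984 per library labelled Sirt1-KO. The marker lists moved with the lines. The 5 D2-MSN markers (*Drd2*, *Penk*, *Gpr6*, *Gpr52*, *Sp9*) summed to 1797 to 2976 CPM (normalized counts, scaled to a common total per library) in D1-IPs and 4891 to 6933 in D2-IPs, so that D1-IPs were not free of them. The 5 D1-MSN markers summed to 1072 to 1507 CPM in D1-IPs and 386 to 626 in D2-IPs. The 4 markers of cortical excitatory neurons summed to 364 to 1288 CPM in D1-IPs and 20.5 to 280.8 in D2-IPs, and the 4 markers of cholinergic interneurons to 7.25 to 26.5 and 53.5 to 116 CPM. The 4 general MSN markers (*Ppp1r1b*, *Pde10a*, *Rgs9*, *Bcl11b*) were all lower in D1-IPs, by log2 differences of -0.29 to -0.43 (edgeR, adjusted p under 0.05), at summed CPM of 3067 to 4686 against 4015 to 5508. The part of these cells in the values below was not tested. Libraries were sequenced in several sets that are not named per library, so no within-batch value can be given, and the p-values measure the spread between libraries of pooled mice.

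On GRCm38 (mm10) in GENCODE vM21, the members are protein-coding genes on 7 chromosomes. *Adora1* lies at chr1:134199223-134235431 (minus strand), *Adora2a* at chr10:75316877-75334784 (plus) and *Adora2b* at chr11:62248984-62266453 (plus). *Adk* spans chr14:21052574-21448569 (plus), *Nt5e* chr9:88327197-88372092 (plus), *Slc29a1* chr17:45585200-45599606 (minus) and *Slc29a2* chr19:5023860-5031972 (plus). The exons of *Adora1* share 1162 bases with *Mybph* on the opposite strand, which held 4 to 25 counts in IPs. The exons of *Slc29a1* share 275 bases with Gm17080, also on the opposite strand. Whether the counting used strand is not given in the sources used here, although the library kit marks it.

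The promoters of *Nt5e* and *Adk* are shown because both genes differed between D1-IPs and D2-IPs and neither was in the marker lists used here. The windows run from 250 bases before to 50 bases after the RefSeq start on GRCm38.p6, at chr9:88327359-88327658 and chr14:21052324-21052623, both on the plus strand. *Adk* has a second RefSeq start, not shown. The whole *Nt5e* window lies within the gene as GENCODE vM21 places it, downstream of its start at chr9:88327197. Capitals mark GGGCGG (a GC box) and TGACG (the core of a cyclic AMP response element) on either strand.
Nt5e: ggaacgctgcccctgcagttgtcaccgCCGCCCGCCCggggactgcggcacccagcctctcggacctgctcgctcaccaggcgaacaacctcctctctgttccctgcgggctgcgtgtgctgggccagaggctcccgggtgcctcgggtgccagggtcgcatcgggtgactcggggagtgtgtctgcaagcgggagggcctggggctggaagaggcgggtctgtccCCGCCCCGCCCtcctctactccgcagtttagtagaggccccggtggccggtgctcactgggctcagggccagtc
Adk: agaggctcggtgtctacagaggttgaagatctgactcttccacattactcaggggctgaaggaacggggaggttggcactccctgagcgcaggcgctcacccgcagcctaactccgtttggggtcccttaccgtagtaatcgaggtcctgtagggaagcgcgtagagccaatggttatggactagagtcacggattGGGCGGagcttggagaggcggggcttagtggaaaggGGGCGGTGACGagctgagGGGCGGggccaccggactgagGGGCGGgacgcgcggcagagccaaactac

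Each window held 4 GGGCGG matches, and that of *Adk* also held 1 TGACG. The full palindrome TGACGTCA, which contains TGACG, was in neither window. Of 32851 promoter windows of this length, 35.66% held GGGCGG, 20.81% held TGACG and 1.79% held TGACGTCA. The GC content was 71.0% for *Nt5e* and 61.67% for *Adk*, against a median of 52.67% over all windows, and the number of CpG dinucleotides was 23 and 21, against a median of 7. RefSeq promoter entries were matched for 6 of the 7 members, all but *Adora2a*.

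*Adora2a* was the member with the widest gap between the MSN classes. In D1-IPs it measured 406, 301, 270.4 and 286 CPM in Con, 287, 296, 319 and 296 CPM in Res and 283, 280.1, 221, 254 and 286 CPM in Sus. In D2-IPs it measured 882, 941, 809, 829.5 and 928 CPM in Con, 928, 776, 794, 844 and 707 CPM in Res and 699, 787, 768, 828 and 812 CPM in Sus. These CPM come from counts with TMM factors over the 28 IPs. All 13 D1-IPs lay below all 15 D2-IPs, with the highest D1-IP, a Con library, at 406 CPM and the lowest D2-IP, a Sus library, at 699 CPM. The means were 291 ± 41.9 CPM (SD, n = 13) and 822 ± 73.9 CPM (SD, n = 15), a difference of -1.49 on the log2 scale (SE 0.054), or 2.81-fold more in D2-IPs (edgeR's quasi-likelihood test, Benjamini-Hochberg adjusted p = 1.44e-18). As D1 over D2, the D2-MSN markers differed by -1.29 to -1.82, so *Adora2a* lay within their range.

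*Nt5e*, which completes the breakdown of extracellular ATP to adenosine, showed the same direction. In D1-IPs it measured 29.6, 21.4, 21.7 and 23.1 CPM in Con, 24.8, 22.5, 26.7 and 23.4 CPM in Res and 22.9, 21.1, 21.7, 21.7 and 20.4 CPM in Sus. In D2-IPs it measured 55.1, 48.1, 58.9, 69.5 and 57.8 CPM in Con, 60.0, 58.5, 56.95, 60.7 and 50.4 CPM in Res and 52.1, 55.6, 61.8, 48.9 and 57.3 CPM in Sus. The ranges did not overlap, with 20.4 to 29.6 CPM in D1-IPs and 48.1 to 69.5 CPM in D2-IPs. The log2 difference was -1.29 (SE 0.053), or 2.44-fold more in D2-IPs (edgeR, adjusted p = 1.78e-17), from 457 to 868 counts in D1-IPs and 981 to 1972 in D2-IPs.

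*Adk*, the intracellular enzyme that clears adenosine, was also higher in D2-IPs, by less. In D1-IPs it measured 39.1, 39.2, 36.9 and 31.9 CPM in Con, 34.2, 35.8, 35.7 and 31.5 CPM in Res and 34.0, 33.0, 35.1, 35.5 and 34.0 CPM in Sus. In D2-IPs it measured 57.7, 55.8, 58.0, 54.5 and 56.9 CPM in Con, 57.2, 58.4, 60.0, 59.7 and 54.0 CPM in Res and 55.6, 53.6, 62.8, 59.2 and 46.9 CPM in Sus. Again all D1-IPs lay below all D2-IPs, the closest libraries standing at 39.2 and 46.9 CPM. The log2 difference was -0.69 (SE 0.038), or 1.61-fold more in D2-IPs (edgeR, adjusted p = 1.28e-14).

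**Figure D1:**
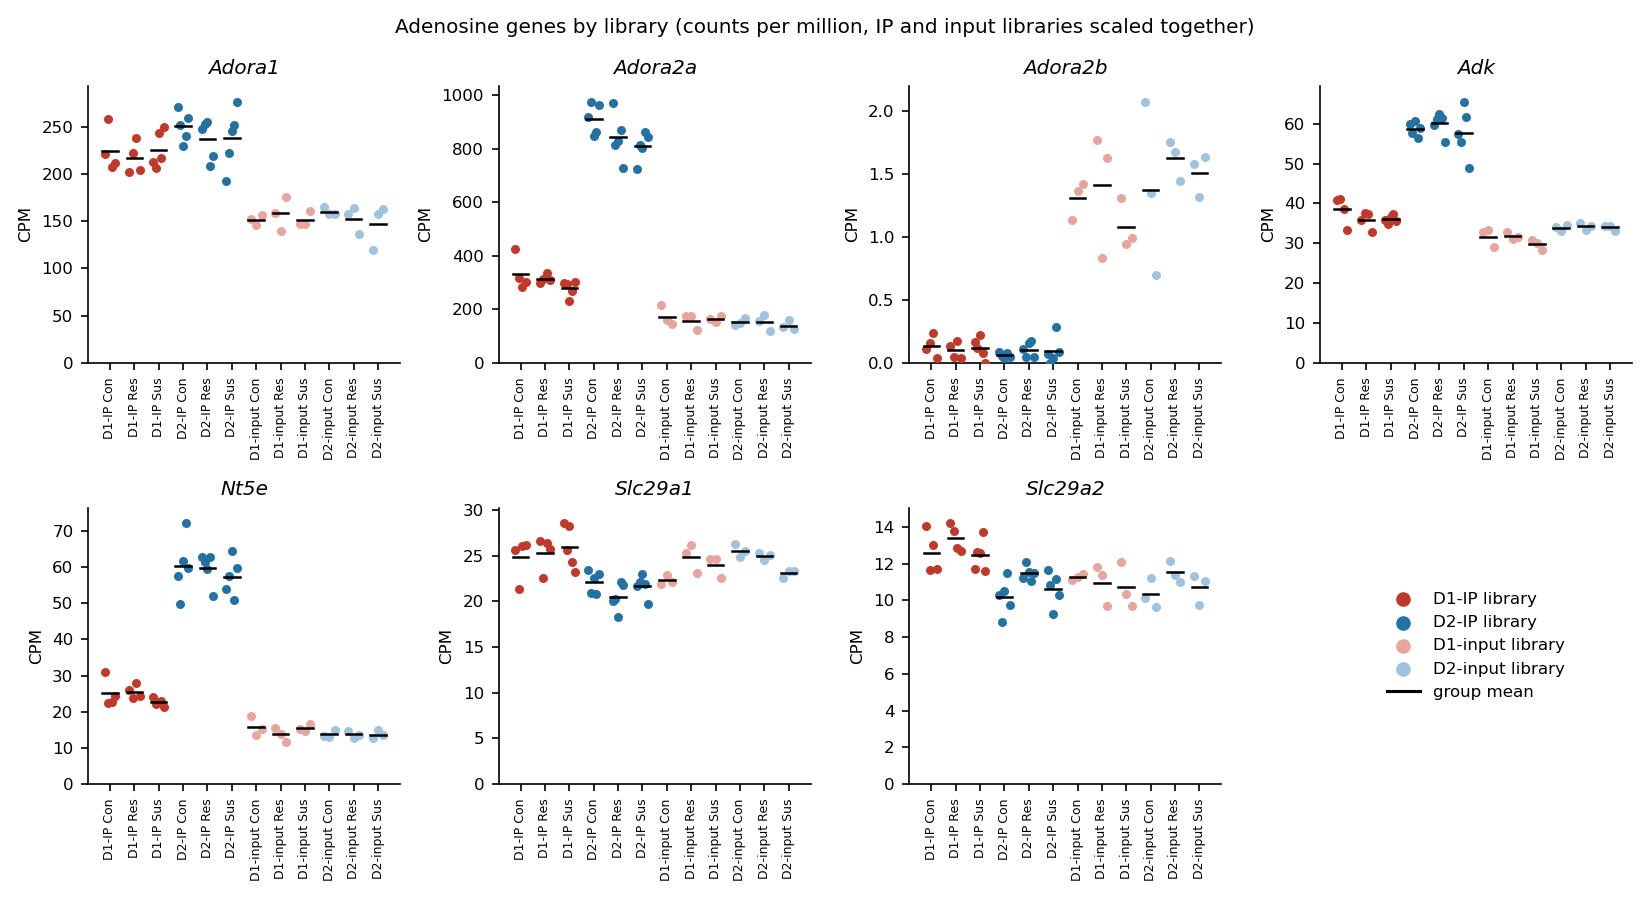
CPM of the 7 members in each IP and input library (points, IPs and inputs scaled together) by line and stress group, with a black bar at each group mean. *Adora2a*, *Nt5e* and *Adk* stood higher in all 15 D2-IPs than in any of the 13 D1-IPs, and *Adora2b* was near 0 in IPs and above it in inputs.

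The A1 receptor was nearly even between the classes. *Adora1* ran from 193 to 246 CPM in D1-IPs with a median of 206, and from 186 to 266 CPM in D2-IPs with a median of 237. The ranges overlapped over most of their width. The log2 difference was -0.13 (SE 0.048, 95% interval -0.23 to -0.03; edgeR, adjusted p = 0.0278), and leaving out any of 5 single libraries ended the call (adjusted p 0.0537 to 0.0587).

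The transporters went the other way, by little. *Slc29a1* ran from 20.4 to 27.2 CPM in D1-IPs (median 24.6) and from 17.5 to 22.5 CPM in D2-IPs (median 21.0), and 10 of 13 D1-IPs lay above all D2-IPs. It was 1.17-fold higher in D1-IPs (log2 0.23, SE 0.044; edgeR, adjusted p = 0.000101). *Slc29a2* ran from 11.1 to 13.6 CPM in D1-IPs (median 12.2) and from 8.52 to 11.5 CPM in D2-IPs (median 10.7), with 9 of 13 D1-IPs above all D2-IPs. It was 1.18-fold higher in D1-IPs (log2 0.24, SE 0.047; edgeR, adjusted p = 0.000153). *Adora2b*, the low-affinity receptor, held 0 to 7 counts per IP and did not pass the filter on low counts, so it was not tested between the classes.

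All 6 tested members differed between D1-IPs and D2-IPs over the mean of the stress groups, 4 higher in D2-IPs and 2 higher in D1-IPs, where 40.8% of the 14224 genes tested did. With a fold change over 1.5 in addition, 3 members (*Adora2a*, *Nt5e* and *Adk*) passed, against 7.66% of all genes. The share of all genes whose D1-IPs and D2-IPs do not overlap is not given here. The median log2 difference of the 6 was -0.41, and that of all genes was -0.0157. In bulk IPs, fewer cells of a type and less RNA per cell cannot be told apart.

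Within stress groups the same 3 genes were called each time. In Con, *Adora2a* (-1.47), *Nt5e* (-1.27), *Adk* (-0.62) and *Slc29a2* (0.29) passed an adjusted p under 0.05 in edgeR, where 14% of genes did. In Res, *Adora2a* (-1.44), *Nt5e* (-1.24), *Adk* (-0.75) and *Slc29a1* (0.29) passed, with 17.5% of genes. In Sus, *Adora2a* (-1.56), *Nt5e* (-1.35), *Adk* (-0.70) and *Slc29a1* (0.25) passed, with 17.6% of genes. The call of *Slc29a2* in Con was lost with only the compared libraries (adjusted p = 0.069) and without any of 3 single libraries (adjusted p 0.0512 to 0.0638). That of *Slc29a1* in Sus was lost without any of 3 single libraries (adjusted p 0.0503 to 0.0664). *Adora1* passed in no stress group, with log2 differences of -0.17, -0.14 and -0.09 in Con, Res and Sus. Interaction terms between line and stress passed for no member at an adjusted or an unadjusted p under 0.05 (edgeR, unadjusted p from 0.17 to 0.994), so no difference between the stress groups' values was shown.

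**Figure D2:**
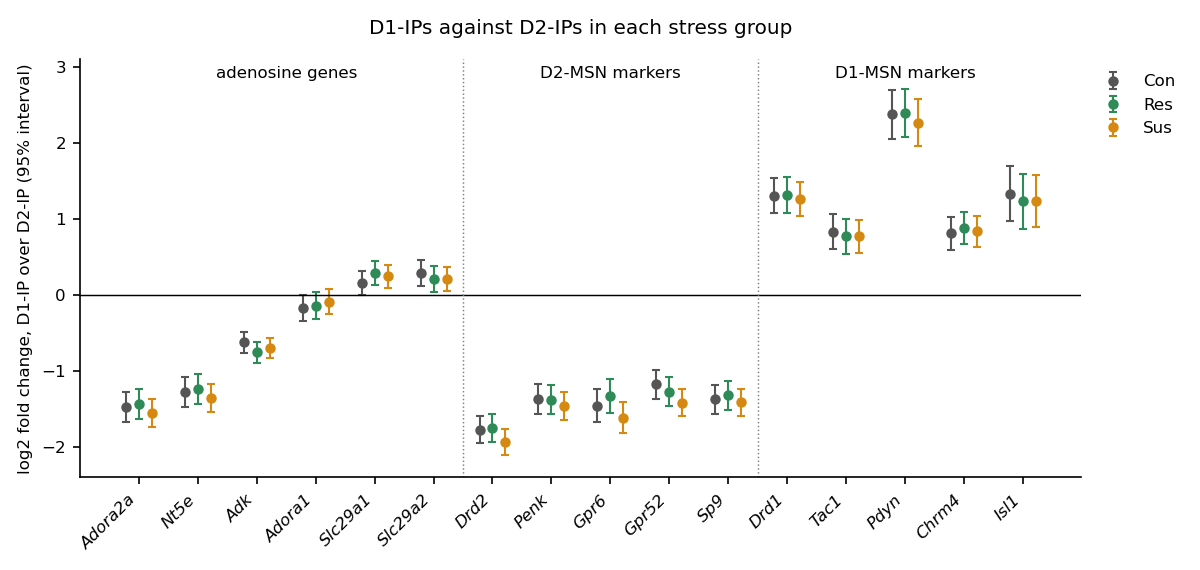
Log2 fold change of D1-IPs over D2-IPs in Con, Res and Sus with 95% intervals, for the 6 tested members, 5 D2-MSN markers and 5 D1-MSN markers. *Adora2a* lies in the range of the D2-MSN markers in each stress group, *Nt5e* lies at its end nearer to 0, *Adk* lies between them and 0, and *Adora1*, *Slc29a1* and *Slc29a2* lie near 0.

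Per length of exon *Adora2a* and *Adora1* led the list and *Adora2b* came last. In D1-IPs, *Adora2a* stood at 99.8 ± 14.3 CPM per kb (SD, n = 13) and *Adora1* at 38.5 ± 3.24, followed by *Slc29a1* at 6.34 ± 0.52, *Adk* at 4.31 ± 0.293, *Slc29a2* at 4.24 ± 0.313, *Nt5e* at 2.82 ± 0.308 and *Adora2b* at 0.0627 CPM per kb. In D2-IPs, *Adora2a* stood at 279 ± 25.3 CPM per kb (SD, n = 15) and *Adora1* at 41.8 ± 4.0, followed by *Adk* at 6.91 ± 0.463, *Nt5e* at 6.86 ± 0.676, *Slc29a1* at 5.35 ± 0.357, *Slc29a2* at 3.57 ± 0.31 and *Adora2b* at 0.0466 CPM per kb. Neighbours whose libraries overlapped were *Adk* and *Slc29a2* in D1-IPs, and *Adk* with *Nt5e* and *Nt5e* with *Slc29a1* in D2-IPs. So *Adora2a* was the most abundant member per length in D1-IPs as well, at 2.59 times *Adora1*, against 6.68 times in D2-IPs and 1.92 times in inputs. With the length of the longest transcript in place of all exons, *Adora2a*, *Adora1* and *Adora2b* kept their places and the order of the lower members changed.

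The next comparison set ribosome-bound RNA against the input of the same line, with all 46 libraries scaled together. *Adora2a* ran from 122 to 214 CPM in D1-inputs and from 120 to 177 CPM in D2-inputs. On the same scale it ran from 232 to 426 CPM in D1-IPs and from 723 to 975.2 CPM in D2-IPs. IPs and inputs of a line did not overlap. How many of all genes show no such overlap is not given here, for *Adora2a* or for the members below. *Adora2a* was enriched 1.87-fold in D1-IPs (log2 0.91; edgeR, adjusted p = 2.42e-14) and 5.8-fold in D2-IPs (log2 2.54, adjusted p = 2.5e-28). The 5 D2-MSN markers were likewise higher in D1-IPs than in D1-inputs (5 of 5, log2 0.29 to 1.43), as they were in D2-IPs (log2 1.70 to 2.98).

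*Nt5e* lay between 11.8 and 18.7 CPM in the inputs of the D1 line and between 21.4 and 31.0 CPM in its IPs. In the D2 line its inputs lay between 12.7 and 14.9 CPM and its IPs between 49.8 and 72.1 CPM. No IP overlapped an input of its line, and the share of all genes like this is not given here. It was enriched 1.63-fold in D1-IPs (log2 0.71; edgeR, adjusted p = 5.16e-13) and 4.3-fold in D2-IPs (log2 2.10, adjusted p = 2.25e-28). *Adk*, an enzyme that astrocytes are known to make in large amounts, lay between 28.4 and 33.2 CPM in D1-inputs and between 32.9 and 41.1 CPM in D1-IPs, and 12 of 13 D1-IPs lay above all D1-inputs (log2 0.25; edgeR, adjusted p = 5.53e-07). In D2-inputs it ran from 33.2 to 35.2 CPM and in D2-IPs from 48.8 to 65.6 CPM, without overlap (1.73-fold, log2 0.79, adjusted p = 1.39e-21). The 6 astrocyte markers were all lower in IPs than in inputs in both lines, by log2 -2.56 to -3.89 in D1-IPs.

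*Adora1* was enriched in both lines, with means of 154 ± 10.8 CPM (SD, n = 9) for D1-inputs and 223 ± 18.8 (n = 13) for D1-IPs, and of 153 ± 15.4 (n = 9) for D2-inputs and 242 ± 23.2 (n = 15) for D2-IPs. The log2 changes were 0.53 and 0.66 (edgeR, adjusted p = 6.8e-11 and 8.86e-14). *Adora2b* was the member that IPs lost. Its counts were 17 to 48 in the 18 inputs and 0 to 7 in the 28 IPs, a log2 change of -3.36 (SE 0.289) in D1 and -4.07 in D2, that is 10.3-fold and 16.8-fold less (edgeR, adjusted p = 7.05e-14 and 1.65e-16). Every IP lay below every input, and again no share of all genes is given. Markers of microglia, endothelial cells, oligodendrocytes and astrocytes fell in the same comparisons, and their part in the *Adora2b* result was not tested.

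The transporters changed little between input and IP. *Slc29a1* lay between 21.9 and 26.2 CPM in D1-inputs and between 21.4 and 28.6 CPM in D1-IPs (log2 0.10; edgeR, adjusted p = 0.0321). That call was lost with relative log expression scaling (0.07, adjusted p = 0.129), with a mean count of at least 50 (0.02, adjusted p = 0.743), in DESeq2 (adjusted p = 0.136), with only the compared libraries (adjusted p = 0.0586), with Con libraries alone (adjusted p = 0.0929) and without any of 4 single libraries (adjusted p 0.0503 to 0.0703). In D2 it was lower in IPs, at 18.3 to 23.4 CPM against 22.6 to 26.3 CPM in inputs (log2 -0.19, adjusted p = 6.35e-05), and 11 of 15 D2-IPs lay below all D2-inputs. *Slc29a2* was higher in D1-IPs, at 11.6 to 14.2 CPM against 9.69 to 12.1 CPM (log2 0.22, adjusted p = 0.000217), a call lost with Con libraries alone (0.16, adjusted p = 0.177). In D2 its difference was -0.01, with a 95% interval of -0.12 to 0.09 (adjusted p = 0.853).

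In D1, 7 of 7 members were called between IP and input, 6 higher and 1 lower, where 81.9% of genes tested were. In D2, 6 of 7 were called, 4 higher and 2 lower, where 82.7% were. The shares are close to the background, and the medians were 0.25 in D1 and 0.66 in D2 against -0.041 and -0.0848 over all genes. The enrichment itself differed between the lines for 5 of 7 members at an adjusted p under 0.05, where 25.5% of genes did. As D1 minus D2, the difference in log2 enrichment was -1.63 for *Adora2a*, -1.40 for *Nt5e* and -0.54 for *Adk* (edgeR interaction, adjusted p = 1.66e-15, 2.28e-15 and 7.91e-10). For *Slc29a1* it was 0.29 (adjusted p = 0.000282) and for *Slc29a2* 0.23 (adjusted p = 0.0166), and with Con libraries alone these became 0.34 (adjusted p = 0.0825) and 0.16 (adjusted p = 0.607). For *Adora1* it was -0.13 with a 95% interval of -0.29 to 0.03 (adjusted p = 0.254), and for *Adora2b* 0.71 (adjusted p = 0.259). An IP and an input of the same number share a homogenate, and with that pairing as a block, over the 18 pairs, the call of *Slc29a2* was lost (0.25, adjusted p = 0.0577) and *Adora2b* was called (1.47, adjusted p = 0.0177). The call of *Slc29a2* was also lost without any of 9 single libraries (adjusted p 0.0521 to 0.0814). The 4 general MSN markers differed by -0.32 to -0.57 in the same test, and their part was not tested. This comparison shares its IPs with the comparison of D1-IPs and D2-IPs.

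**Figure D3:**
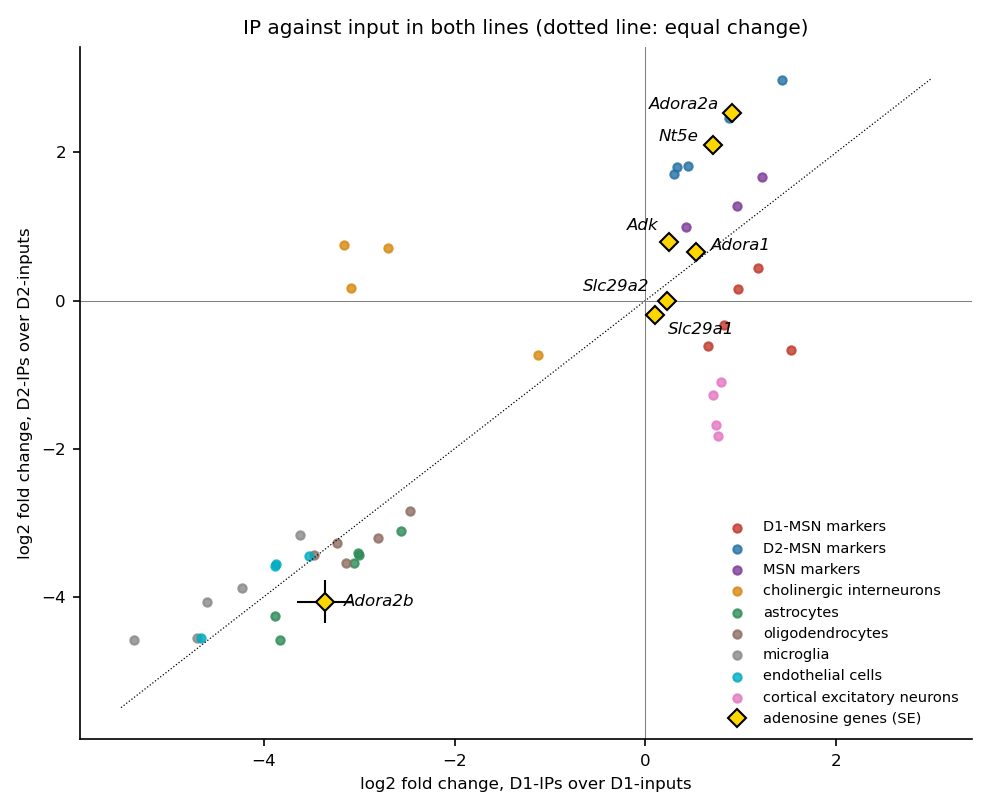
Log2 fold change of D1-IPs over D1-inputs (horizontal) against that of D2-IPs over D2-inputs (vertical), with members as gold diamonds with standard errors, marker lists in colour and a dotted line of equal change. *Adora2a* (0.91 and 2.54) and *Nt5e* (0.71 and 2.10) lie with the D2-MSN markers far above the line, *Adora1* lies near it, and *Adora2b* (-3.36 and -4.07) lies with the glial markers.

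Inputs of the lines gave a check of the tissue itself. No member was called between D1-inputs and D2-inputs in edgeR or DESeq2 (adjusted p under 0.05), where 0.0266% of genes were in edgeR. At an unadjusted p under 0.05, 1 of 7 members passed, *Adk*, with a log2 difference of -0.13 (adjusted p = 0.589). The share of all genes past that unadjusted threshold is not given here.

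For chronic social defeat, the question was whether any member differed between Con, Res and Sus within an MSN class. The threshold was an unadjusted p under 0.05, and the adjusted p is given beside a call. The contrasts of a line share libraries, since Sus and Res were both set against the same Con. In D1-IPs, *Adora2a* was lower in Sus than in Con, by 0.25 on the log2 scale (95% interval -0.44 to -0.07; edgeR, unadjusted p = 0.00958, adjusted p = 0.846). It was the 1 member of 6 past the threshold there, against 5.34% of all genes, and the ranges met, with Sus at 221 to 286 CPM and Con at 270.4 to 406 CPM. The first Con library, at 406 CPM, carried much of it, for without that library the difference was -0.11 (unadjusted p = 0.198). The D2-MSN markers moved alongside, 4 of 5 lower in Sus D1-IPs at an unadjusted p under 0.05 (*Drd2* -0.20, *Penk* -0.21, *Gpr6* -0.26, *Gpr52* -0.25), and *Sp9* stood at -0.12. Relative to the mean of those 5 markers, *Adora2a* differed by -0.04 between Sus and Con (two-sided exact permutation test over 126 arrangements, p = 0.54), an alternative added after the data were seen. *Adora2a* is itself a gene of D2 receptor-expressing MSNs, so this value cannot tell its change from theirs, and no cause is drawn from it. In the same contrast the 5 D1-MSN markers (-0.23 to -0.03) and the 4 general MSN markers (-0.20 to -0.05) lay below 0 too. Of these, 1 general MSN marker passed an unadjusted p under 0.05 (edgeR). The 6 astrocyte markers lay above 0, 1 of them at an unadjusted p under 0.05. The 4 cortical, 5 oligodendrocyte and 5 microglia markers lay above 0 with none past it (edgeR). Of 4 endothelial markers, 2 lay above 0 and 2 below, 1 of the latter past it. Of 4 markers of cholinergic interneurons, 2 lay above 0 and 2 below, with none past it. The part of these lists was not tested.

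No member passed between Res and Con in D1-IPs, where 2.11% of genes did, or between Sus and Res, where 4.23% did (edgeR, with 0 in DESeq2 as well). Between Sus and Res, *Adora2a* differed by -0.18 (edgeR, unadjusted p = 0.0643), with the 5 Sus D1-IPs at 221 to 286 CPM and the 4 Res D1-IPs at 287 to 319 CPM. These ranges nearly touched, and the share of all genes whose ranges lie apart is not given here. *Nt5e* also differed by -0.18 between Sus and Res (edgeR, unadjusted p = 0.0749). Without the fourth Con library, *Adk* would have passed in D1-IPs, with -0.16 in Sus (unadjusted p = 0.0296) and -0.16 in Res (unadjusted p = 0.0343).

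In D2-IPs, no member passed between Sus and Con, where 3.68% of genes did, and *Adora2a* came closest at -0.17 (95% interval -0.35 to 0.004; edgeR, unadjusted p = 0.0548). Between Res and Con, *Slc29a2* passed at 0.17 (unadjusted p = 0.0393, adjusted p = 1.0), 1 of 6 members against 3.02% of genes. Its Res libraries lay at 10.7 to 11.5 CPM and its Con libraries at 8.52 to 11.1 CPM, so that they overlapped, and the call was lost in DESeq2 (unadjusted p = 0.0523), with no filter on low counts (unadjusted p = 0.0509), with the compared libraries alone (unadjusted p = 0.0672) and without any of 6 single libraries (unadjusted p 0.0505 to 0.139). No member passed between Sus and Res in D2-IPs, where 1.66% of genes did. The change of *Adora2a* from Con to Sus was not shown to differ between D1-IPs and D2-IPs (interaction -0.08, unadjusted p = 0.52).

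In inputs, no member passed in any stress contrast in edgeR at an unadjusted p under 0.05, where 4.13% of genes did between Sus and Con, 2.97% between Res and Con and 4.86% between Sus and Res. The lowest unadjusted p was 0.0841, for *Slc29a1* between Sus and Res (-0.08). DESeq2 at the same threshold also called no member in inputs.

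**Figure D4:**
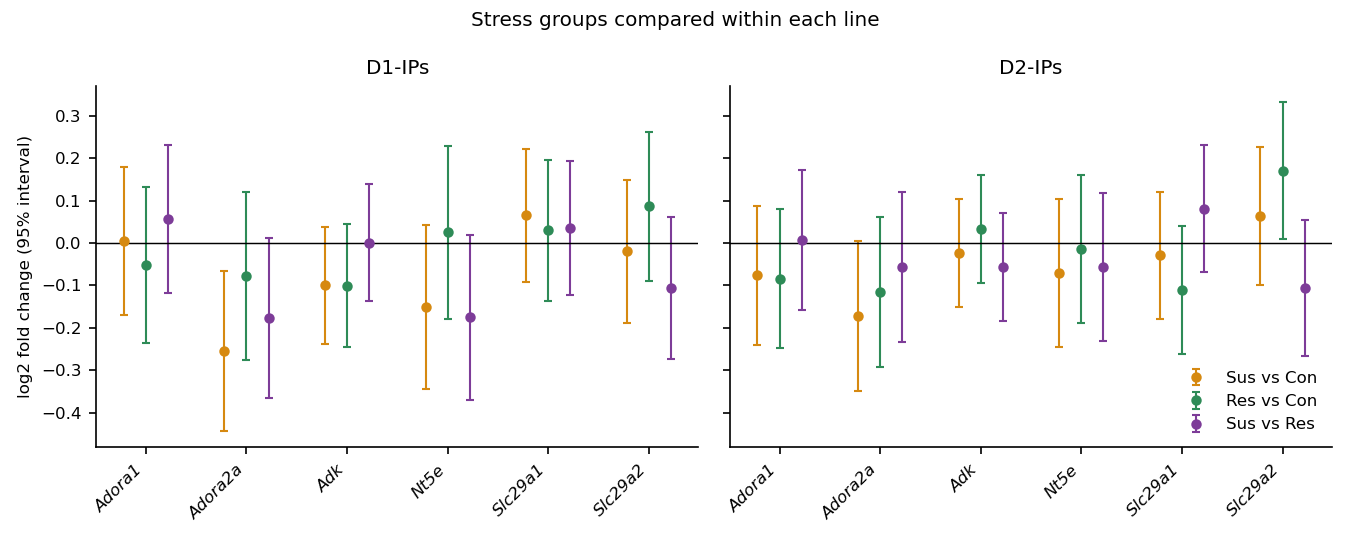
Log2 fold change with 95% interval for Sus over Con, Res over Con and Sus over Res, in D1-IPs (left) and D2-IPs (right), for the 6 tested members. The intervals that exclude 0 are those of *Adora2a* in D1-IPs for Sus over Con (-0.44 to -0.07) and of *Slc29a2* in D2-IPs for Res over Con.

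Over the 13 D1-IPs, *Adora2a* moved with the D2-MSN markers, a relation added after the data were seen. Pearson's r of its log2 CPM with the mean of the 5 markers was 0.918 (permutation p = 5e-05, adjusted over 6 members 0.0003), and Spearman's rho was 0.846 (permutation p = 0.0005, adjusted p = 0.003). Without the 2 libraries farthest from the median of the markers r was 0.841, and with stress group means removed it was 0.885. For *Nt5e*, r was 0.704 (permutation p = 0.00908, adjusted p = 0.0272), but rho was 0.374 (permutation p = 0.211, adjusted p = 0.401) and r fell to 0.397 without those 2 libraries, so the relation rests on them. *Adk* gave r = 0.312 (permutation p = 0.303), and *Adora1*, *Slc29a1* and *Slc29a2* gave 0.033, -0.151 and 0.184. Values of libraries share their depth and their tissue punches. No other marker list was correlated with the members, so the relation is not shown to be particular to D2-MSN markers.

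The genes most like each member over the 28 IPs, by Pearson's r of log2 CPM and as a description, were *Drd2* (0.993), *Penk* (0.992) and *Gpr6* (0.988) for *Adora2a*, and *Drd2* (0.981), *Gpr6* (0.979) and *Adora2a* itself (0.977) for *Nt5e*. They were *Mdfic* (0.966), *Gpr52* (0.964) and *Ankk1* (0.96) for *Adk*. With the mean of each line removed, *Adora2a* was most like *Kcnip2* (0.896), *Rasd2* (0.896) and *Syndig1l* (0.889), whereas *Nt5e* was most like *Kcna5* (0.754), *Agfg2* (0.726) and *Chia1* (0.682), and *Adk* most like *Hat1* (0.721), *Dnaja2* (0.72) and *Yipf4* (0.719). On that last measure *Drd2*, *Penk* and *Gpr6* stood at 0.814, 0.814 and 0.753 with *Adora2a*. The 3 members that were higher in D2-IPs correlated with each other at 0.954 to 0.977 across lines. Within lines the values were 0.4664 for *Adora2a* and *Nt5e*, 0.234 for *Adora2a* and *Adk* and 0.185 for *Adk* and *Nt5e*.

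The members with smaller differences between the lines had other neighbours. *Adora1* was most like *Osbp2* (0.852) and *Klf9* (0.8292) across lines, and most like *Fam212b* (0.866), *Brinp1* (0.865) and *Cyp11a1* (0.835) within them. *Slc29a1* was most like *Ap1b1* both across lines (0.885) and within them (0.731). *Slc29a2* was most like *Il1rapl2* (0.799) across lines and *Ikzf1* (0.671) within them.

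Of 35 other genes of adenosine and purine nucleoside metabolism that were listed, 34 were in the tables and 23 were tested in IPs. Between D1-IPs and D2-IPs, 6 were higher in D1-IPs and 2 were higher in D2-IPs (edgeR, adjusted p under 0.05), 8 of 23 against 40.8% of all genes, and the median log2 difference of the 23 was 0.037. Higher in D1-IPs were the ectonucleotidase *Entpd2* (0.77, adjusted p = 0.00321), the cytosolic 5'-nucleotidases *Nt5c1a* (0.43, adjusted p = 0.0391) and *Nt5c* (0.20, adjusted p = 0.00167) and the intracellular transporter *Slc29a3* (0.29, adjusted p = 0.0187), with *Nt5m* and *Hprt*. Higher in D2-IPs were *Enpp1*, which cleaves extracellular ATP to AMP (-0.60, adjusted p = 0.00166), and the AMP deaminase *Ampd3* (-0.24, adjusted p = 0.000185). *Entpd2* is also an astrocyte gene, and the 6 astrocyte markers were all higher in D1-IPs (log2 0.35 to 0.75). Its part in the *Entpd2* difference was not tested.

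Against inputs, 28 genes of the list were tested. In D1, 9 were higher and 15 lower in IPs, against 81.9% of all genes called, with a median of -0.24. In D2, 9 were higher and 19 lower, against 82.7% of all genes, with a median of -0.44. Higher in both lines were *Entpd3* (1.00 in D1 and 0.99 in D2), *Pnp2* (0.97 and 1.30), *Hprt* (0.92 and 0.78), which salvages purine bases, and *Ahcy* (0.69 and 0.79), which splits S-adenosylhomocysteine into adenosine and homocysteine. Lowest were the A3 receptor *Adora3* (-4.17 and -4.46), *Alpl* (-3.64 and -3.58), *Entpd2* (-3.23 and -3.86) and *Dpp4* (-2.50 and -2.46). Between the inputs of the lines, 27 genes of the list were tested and none passed an adjusted or an unadjusted p under 0.05 in edgeR. Between Sus and Con in D1-IPs, *Entpd2* (0.90, unadjusted p = 0.0169) and *Alpl* (1.05, unadjusted p = 0.0436) passed the unadjusted threshold (adjusted p = 0.846 for both), 2 of 23 against 5.34% of all genes.

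The libraries labelled Sirt1-KO were compared with the 4 Con D1-IPs. Whether both were raised and sequenced together is not given, so genotype cannot be told apart from age, cohort or sequencing run. *Sirt1* itself, a NAD-dependent deacetylase, measured 13.1, 16.6, 14.8 and 14.4 CPM in Con and 15.2, 16.2, 13.2 and 10.2 CPM in the libraries labelled Sirt1-KO. The groups overlapped, with a log2 difference of -0.10 (SE 0.133; edgeR, adjusted p = 0.768). A gene count sums reads over all exons and does not show the removal of a floxed part, so the label is not checked by it.

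*Nt5e* was lower in the libraries labelled Sirt1-KO. It measured 29.3, 21.2, 21.5 and 23.1 CPM in Con and 13.8, 14.2, 16.9 and 18.7 CPM in Sirt1-KO, on the scale of these 8 libraries, and the groups did not overlap. The share of all genes without overlap between these groups is not given here. The log2 difference was -0.59 (SE 0.126, 95% interval -0.86 to -0.31), or 1.5-fold less (edgeR, adjusted p = 0.044). It was the 1 of 6 tested members called, against 1.66% of genes, and leaving out any of 6 of the 8 libraries ended the call (adjusted p 0.0807 to 0.134), with -0.47 (adjusted p = 0.0807) without the first Con library. Relative to the 5 D2-MSN markers, which were themselves lower by a median of 0.28 on the log2 scale in these libraries (2 of 5 at an unadjusted p under 0.05), the difference was -0.29. Its two-sided exact permutation p was 0.0286, the smallest that 4 against 4 libraries allow (0.171 adjusted over the 6 such tests, of 3 members in this comparison and in Sus over Con).

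*Adora2a* measured 402, 299, 268 and 286 CPM in Con and 237, 209, 214 and 330.2 CPM in Sirt1-KO, so that 3 libraries lay below all Con libraries and 1 stood among them. The log2 difference was -0.34 (95% interval -0.68 to -0.01; edgeR, adjusted p = 0.278), and without that library, replicate 5, it was -0.52 (adjusted p = 0.0233). Relative to the D2-MSN markers the difference was -0.06 (exact permutation p = 0.229), which cannot tell the change of *Adora2a* from that of the markers. *Adk* measured 38.8, 38.9, 36.5 and 31.8 CPM in Con and 36.0, 31.9, 31.2 and 30.8 CPM in Sirt1-KO (-0.17, edgeR, adjusted p = 0.318). *Adora1* (0.10, adjusted p = 0.56), *Slc29a1* (-0.01, adjusted p = 0.955) and *Slc29a2* (-0.09, adjusted p = 0.677) did not pass either, and *Adora2b* held 0 to 3 counts.

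Other lists moved between these groups too. The 4 markers of cholinergic interneurons were lower in the libraries labelled Sirt1-KO at an unadjusted p under 0.05 (summed CPM 4.06 to 8.41 against 9.75 to 10.8 in Con), and the 4 cortical markers were higher (811 to 1513 against 360 to 990). The 5 D1-MSN markers were lower at an unadjusted p under 0.05 as well, 2 of them at an adjusted p under 0.05 (*Isl1* -0.41 and *Pdyn* -0.37). At an unadjusted p under 0.05, 2 of 4 general MSN markers, 3 of 5 oligodendrocyte markers and 1 of 4 endothelial markers were lower too, and of 6 astrocyte markers 2 were lower and 1 higher. The part of these lists in the *Nt5e* result was not tested. In the list of other adenosine genes, 23 were tested and none passed an adjusted p under 0.05 in edgeR. At an unadjusted p under 0.05, 5 passed, *Nt5c1a* upward (0.70, unadjusted p = 0.00479, adjusted p = 0.103) and *Ampd3* (-0.26), *Slc29a4* (-0.41), *Entpd3* (-0.22) and *Pnp2* (-0.43) downward. For these genes and for the marker lists, the share of all genes past that unadjusted threshold is not given here.

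**Figure D5:**
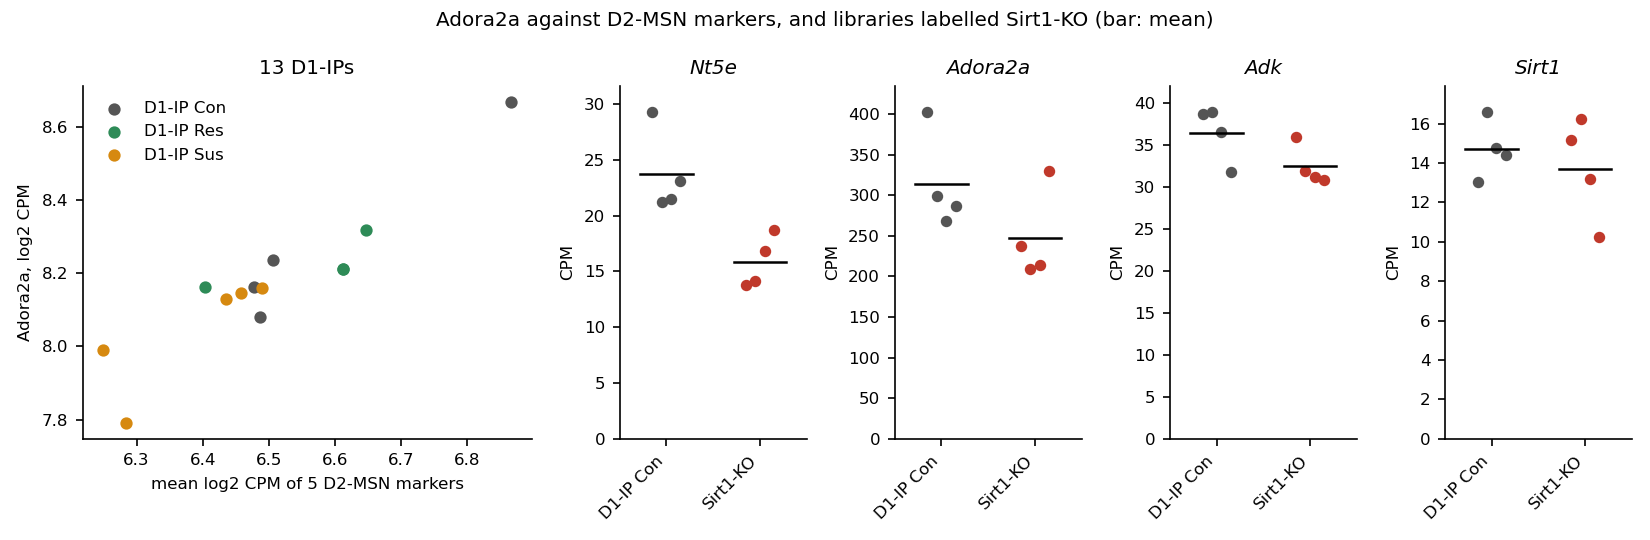
Left, log2 CPM of *Adora2a* against the mean log2 CPM of 5 D2-MSN markers in the 13 D1-IPs, by stress group (r = 0.918). Right, CPM of *Nt5e*, *Adora2a*, *Adk* and *Sirt1* in each Con D1-IP and each library labelled Sirt1-KO with a bar at the mean, where the groups do not overlap for *Nt5e* and overlap for the other 3 genes.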

How the data were processed

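The authors trimmed reads with cutadapt, aligned them to mm10 with STAR and counted them per gene with HTSeq, and the deposited values are whole-number counts. Tool versions, the annotation and the strand setting are not given in the sources used here. RNA was poly-A selected and sequenced as paired ends. The tables hold 24552 genes and 5 entries that name no gene, which took 18.0 to 28.3% of counts in IPs, 35.9 to 40.0% in inputs and 19.2 to 23.8% in the libraries labelled Sirt1-KO and were left out. Of the columns, 2 matched no sample label and were not used. The Sirt1-KO table repeats the 4 Con D1-IPs, and its 5 duplicated symbols were taken once. None of 76 replicate pairs was a duplicate library (chi-square per gene 3.6 to 104).

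From the counts, edgeR 4.0.16 (R 4.3.3, limma 3.58.1) gave TMM-scaled CPM and quasi-likelihood tests. Genes passed filterByExpr (minimum count 10, minimum total 15), in models of the 28 IPs (14224 genes), of all 46 IPs and inputs (15404), of the 18 inputs (15063) and of Sirt1-KO with Con (13626). The model of inputs served the stress contrasts there and the comparison of the lines. Benjamini-Hochberg adjustment ran over all genes of a model, and 95% intervals use the t distribution with edgeR's degrees of freedom. Log2 CPM used a prior count of 2, and correlations 100000 resamples. Comparisons of 2 groups in edgeR were also run on simulated counts. Lengths and positions are from GENCODE vM21 and promoters from RefSeq. All 7 members are named throughout, other listed genes when past the threshold (up to 4 in each direction), and up to 3 genes alike per member, of which 1 is not reported here. The members and lists were chosen with earlier results of these data known. Alternatives were RLE scaling, no filter, a mean count of at least 50, DESeq2 1.42.0, other sets of libraries, each library left out and a term for the replicate number. An input was saved from the homogenate of the IP with its number, per the labels, so these pair by design, although their deviations correlated at a median r of 0.03 over 18 pairs (over 0.1 in 3). The block values are given where they change a call. The tests relative to D2-MSN markers and their correlations were added after the data were seen.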

Additional observations from a re-analysis of the deposited data

Results flagged for a closer look

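*Slc29a1* in the second Con D1-IP measured 20.4 CPM, apart from the other 3 libraries of its group at 24.5 to 24.9 CPM, and the gap was 0.91 of the group's range. It was the 1 such library among 42 combinations of member and group, and chance alone flags about 1 in 20 groups.

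The enrichment of IP over input differed between D1 and D2 libraries by a test of the difference itself (edgeR interaction, adjusted p under 0.05) for 5 members. As D1 minus D2 on the log2 scale, the difference was -1.63 for *Adora2a*, -1.40 for *Nt5e*, -0.54 for *Adk*, 0.29 for *Slc29a1* and 0.23 for *Slc29a2*.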

How the results depend on the processing

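Counts of members called were recomputed under each alternative. Over D1-IPs and D2-IPs, 6 members were called and 3 with a fold over 1.5. In D1-IPs, the count for Sus over Con was 1 and became 0 at an adjusted p, and that for Sus over Res was 0 and became 2 with only the compared libraries. In D2-IPs, the count for Sus over Con was 0 and became 1 with no filter or with only the compared libraries, and that for Res over Con was 1 and became 0 with no filter, in DESeq2, with only the compared libraries and at an adjusted p. The cause was not tested.

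Leaving out 1 library at a time gave 5 to 6 members between D1-IPs and D2-IPs over all stress groups, 3 to 4 in Con, 4 in each case in Res, 3 to 5 in Sus and 0 for the interactions. It gave 0 to 2 for Sus over Con, 0 to 1 for Res over Con and 0 to 1 for Sus over Res in D1-IPs, and 0 to 1, 0 to 1 and 0 in D2-IPs. In inputs it gave 0, 0 and 0 to 1. Between IP and input it gave 6 to 7 in D1 and 6 in D2, between input lines 0, and for Sirt1-KO 0 to 2. Of single members' log2 differences, none changed sign while called, 103 changed sign without a call in either fit, 2692 kept direction and side of the threshold, 50 lost a call and 19 gained one.

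Between IPs of different groups, the labels give a number no shared source. Same-numbered IPs deviated together at r over 0.1 in 23 of 66 pairs (median r 0.077), against 36 of 260 pairs of different numbers (median -0.018), and Sirt1-KO with Con in 0 of 3. Same-numbered IPs thus passed more often than others, but not every pair did, and they were not taken as paired. Whether same-numbered IPs share a source was not tested. With the replicate block, 1 member passed for Sus over Res in D1-IPs (*Adora2a*, -0.19, unadjusted p = 0.0425 in edgeR), 1 for Sus over Con in D2-IPs (*Adora2a*, -0.17, unadjusted p = 0.0477) and 2 for Sirt1-KO (*Nt5e* and *Adora2a*, the latter -0.51, adjusted p = 0.000565). In the Sirt1-KO block, Con replicate 2 and Sirt1-KO replicate 5 have no partner and add nothing to the difference. The block thus sets aside the Sirt1-KO library with *Adora2a* at 330.2 CPM. Without that library and with no block, *Adora2a* stood at -0.52 (edgeR, adjusted p = 0.0233), so the block value is not separate support. Between IP and input, the block changed the 2 calls given above (*Adora2b* and *Slc29a2*) and no other.

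Depth limits *Adora2b* in IPs, where it held 0 to 7 counts and D1-IPs were not compared with D2-IPs directly. Con and Res D1-IPs and Sirt1-KO have 4 libraries each, and sequencing sets and defeat batches are not named per library.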
